A study of Rattus norvegicus with 6 samples.

Results

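The genes described here are 29 genes of cholesterol synthesis and sterol transport, measured on Agilent one-colour arrays in renal cortex from male rats of the Sprague-Dawley strain. They are 19 enzymes of the route from acetyl-CoA to cholesterol (with 1 side branch), 4 regulators of that route, 3 sterol transport genes, and a sterol-sensing nuclear receptor with 2 efflux pumps. Members were found by matching the RefSeq transcript of each non-control probe, without its version, to the gene table of the rat assembly GRCr8. All 29 had a probe, out of 15645 gene symbols on the array, and together they had 56 probes.

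Dipropylene glycol (DPG), a glycol solvent, was given to 3 rats at 1000 mg/kg/day for 4 weeks, and 3 rats received water over the same period. The rats were bought at 5 weeks of age, and no other treatment or genetic change is named in the labels. Each rat gave 1 array of total RNA. The comparison asks which genes of the cortex, the outer kidney with glomeruli and most of the proximal tubule, differed between DPG and water.

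Cells build cholesterol from acetyl-CoA by way of mevalonate, isoprenoid diphosphates, squalene and lanosterol. When sterols in the endoplasmic reticulum run low, the escort protein Scap carries the transcription factor SREBP-2 to the Golgi, where it is cut and released to switch on nearly all enzymes of the route, and Insig proteins hold Scap back when sterols are plentiful. Liver X receptors (LXRs) sense oxidised sterols and switch on the efflux pumps. Tubular cells have large membrane surfaces, brush border included, of which cholesterol is a component.

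The arrays had between 41524 and 41937 of 61537 probes well above background in DPG rats, against between 39556 and 43184 in control rats. No spot was saturated. Control 3 had the fewest such probes and 34 spots with outlier flags, none of them on a probe used below. Precision is limited by the number of arrays. All DPG arrays lay on 1 slide scanned in 1 run, and all control arrays on another slide scanned in another run, so slide, scan and treatment cannot be told apart. Marker genes of the labelled tissue were present, with all 7 convoluted and all 7 straight proximal tubule markers and all 5 podocyte markers above background.

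No member passed the adjusted threshold. In limma, with Benjamini-Hochberg adjustment over 29647 features, 0 of the 29 members had an adjusted p under 0.05 (smallest adjusted p = 0.296), where 0% of all features did. At an unadjusted p of 0.05, 3 members (10.3%) passed and all were higher in DPG, against 12.4% of all features in either direction with 6.68% higher and 5.7% lower. These were Tm7sf2, which encodes a sterol C14 reductase, Dhcr7, which encodes the reductase of the last step of cholesterol synthesis, and Tmem97, a sterol-regulated membrane protein gene. The share of members that passed is near that of all features, and is no result about the members.

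The DPG and control arrays did not overlap for 8 members (27.6%), where 19.7% of all features did not overlap. Of these 8, 7 were higher in DPG (24.1%, against 10.7% of all features). They were Mvk, Mvd, Fdps, Tm7sf2, Ebp, Dhcr7 and Tmem97, and the 1 lower gene was Nr1h2, where 8.96% of all features were lower without overlap. The log2 fold changes (DPG over control) of the members ran from -0.19 for Acat2 to 0.32 for Tm7sf2, and their median was 0.07, where that of all features was 0.00. By sign, 17 members lay above 0 and 12 below (58.6% above 0, against 50.8% of all features). With normexp background correction, another way to remove the local background, the members' median was 0.00. Under normexp 11 of the 29 members did not overlap (8 higher, 3 lower), against 22.9% of all features. With each array scaled to its median, 6 of the 29 did not overlap, all higher, against 19.1% of all features.

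On the brightest probe of each gene, most differences were bounded to a small size. For 27 of the 29 members the 95% interval of the fold change from limma lay within 1.5-fold in either direction. These intervals hold no variance between slides. They can also depend on the probe: with the mean of its probes, Hsd17b7 had a log2 fold change of 0.29 (standard error 0.22). On its brightest probe it had 0.08 (standard error 0.19). The exceptions were Sc5d and Abca1, whose arrays varied most. The members' arrays varied by a median SD of 0.07 in DPG and 0.11 in control (log2), against 0.12 in each group for all features.

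**Figure D1:**
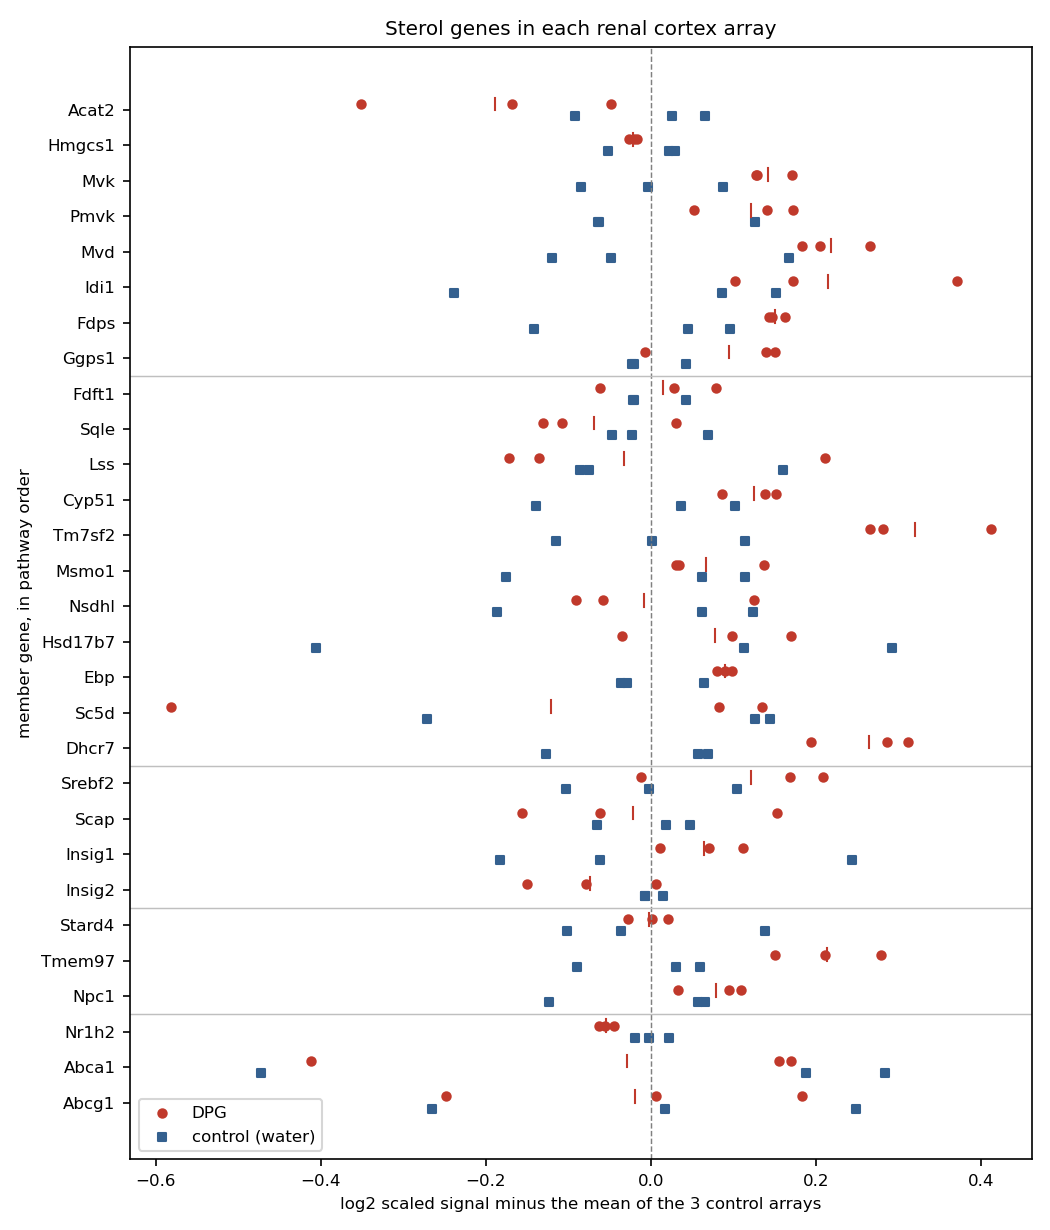
Sterol genes in each array, listed from top to bottom in pathway order with lines between the roles. The x axis is the log2 scaled signal minus the mean of the 3 control arrays; red circles are DPG arrays, blue squares control arrays, and the red tick is the DPG mean. For Tm7sf2, Dhcr7 and Tmem97 all 3 red circles lie to the right of the blue squares, while for most other genes the groups overlap.

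The promoters of the 3 members at an unadjusted p of 0.05 are shown as a description. They stand with that of Hmgcs1, a well known SREBP-2 target whose signal differed little between the groups. The part of these sequences in the fold changes was not tested. Each runs 5′ to 3′ from 250 bases before to 50 bases after the gene's start, from RefSeq on GRCr8, whose table held 24 of the 29 members. Capitals mark CCAAT (or ATTGG on the other strand), the box bound by NF-Y, and GGGCGG (or CCGCCC), the box bound by Sp1, both known partners of SREBP. No CCAAT match overlapped a GGGCGG match in these 4 promoters.
Tm7sf2, chr1:212789492-212789791, minus strand: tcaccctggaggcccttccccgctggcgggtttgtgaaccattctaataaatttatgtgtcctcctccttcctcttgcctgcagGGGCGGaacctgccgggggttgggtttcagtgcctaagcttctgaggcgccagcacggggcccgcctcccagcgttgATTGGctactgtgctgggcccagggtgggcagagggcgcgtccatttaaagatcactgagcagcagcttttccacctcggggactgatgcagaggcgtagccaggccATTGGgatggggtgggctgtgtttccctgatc
Dhcr7, chr1:208444184-208444483, plus strand: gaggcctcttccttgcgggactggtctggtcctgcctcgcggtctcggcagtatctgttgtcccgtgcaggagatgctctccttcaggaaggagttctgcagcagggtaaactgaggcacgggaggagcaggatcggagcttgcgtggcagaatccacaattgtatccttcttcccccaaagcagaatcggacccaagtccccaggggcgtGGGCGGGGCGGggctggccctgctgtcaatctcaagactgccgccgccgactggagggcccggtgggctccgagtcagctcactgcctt
Tmem97, chr10:63945310-63945609, minus strand: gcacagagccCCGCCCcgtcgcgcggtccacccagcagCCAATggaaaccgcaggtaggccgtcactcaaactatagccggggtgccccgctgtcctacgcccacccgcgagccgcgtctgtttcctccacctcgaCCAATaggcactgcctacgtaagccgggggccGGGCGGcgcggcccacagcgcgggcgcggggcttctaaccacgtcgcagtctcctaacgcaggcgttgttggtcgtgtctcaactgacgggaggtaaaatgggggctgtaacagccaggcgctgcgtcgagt
Hmgcs1, chr2:53382054-53382353, plus strand: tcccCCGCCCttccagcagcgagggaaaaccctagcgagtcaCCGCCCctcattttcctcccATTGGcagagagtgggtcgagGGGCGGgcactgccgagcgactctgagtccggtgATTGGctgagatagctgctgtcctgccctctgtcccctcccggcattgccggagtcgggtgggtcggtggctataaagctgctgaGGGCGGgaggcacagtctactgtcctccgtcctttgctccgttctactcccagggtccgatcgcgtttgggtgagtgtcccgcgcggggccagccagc

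Exact matches on either strand were counted in these windows as a description. CCAAT occurred in 17 of the 24 member promoters (70.8%), against 37.5% of 33469 promoters of the same length. GGGCGG occurred in 19 of 24 (79.2%), against 33.1%. The Tm7sf2 window held 2 CCAAT matches and 1 GGGCGG match, the Tmem97 window 2 of each, the Hmgcs1 window 2 CCAAT and 4 GGGCGG matches, and the Dhcr7 window 2 overlapping GGGCGG matches and 0 CCAAT. The 9-letter sterol element TCACNCCAC was found in 0 member windows and in 1.12% of all promoters, which says only that these letters are not in these windows.

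Values below are log2 signals after subtraction of the 75th percentile of each array, here called scaled log2 signals. A value of 0 is that percentile, and a gene's level is not comparable with another gene's because each probe has its own brightness. For each gene the brightest probe above background is given, and each fold change is a log2 difference, DPG over control, with its standard error from limma. Adjusted p-values are from the same limma fit over all features, with n = 3 rats per group. With 3 rats in each group, the smallest two-sided p of an exact permutation test would be 0.1.

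The first 8 enzymes carry acetyl-CoA to the isoprenoid diphosphates, and 6 of them lay above 0, with 0 at an unadjusted p of 0.05 and a median of 0.13. Acat2, the thiolase that joins acetyl units, had 3.10, 3.28 and 3.40 in DPG 1 to 3, against 3.36, 3.47 and 3.51 in control 1 to 3. It had the lowest fold change of all members, -0.19 ± 0.10 (SE; adjusted p = 0.497), and DPG 3 reached into the control range. Its second probe read -0.11. Hmgcs1, which makes HMG-CoA, the substrate of the rate-limiting step, had 2.86, 2.87 and 2.87 in DPG rats, against 2.84, 2.92 and 2.91 in control rats. The DPG arrays lay inside the control range, and the difference was -0.02 ± 0.06 (adjusted p = 0.909), with a 95% interval from 0.889-fold to 1.09-fold. Its 3 probes lay between -0.03 and 0.00.

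Mvk, mevalonate kinase, had -1.29, -1.29 and -1.25 in DPG rats, against -1.42, -1.50 and -1.33 in control rats. All DPG arrays were above all control arrays, by 0.14 ± 0.07 (adjusted p = 0.475). Pmvk, which adds the second phosphate, had 0.56, 0.44 and 0.53 in DPG rats, against 0.33, 0.51 and 0.33 in control rats. Control 2 lay among the DPG arrays, and the difference was 0.12 ± 0.08 (adjusted p = 0.591). Mvd, which decarboxylates mevalonate diphosphate to isopentenyl diphosphate, had 0.75, 0.81 and 0.72 in DPG rats, against 0.71, 0.42 and 0.49 in control rats. The groups did not overlap, although control 1 came within reach of the lowest DPG array, and the difference was 0.22 ± 0.09 (adjusted p = 0.422).

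Idi1, the isomerase of isopentenyl diphosphate, had 1.71, 1.44 and 1.51 in DPG rats, against 1.42, 1.49 and 1.10 in control rats. DPG 1 was the highest and control 3 the lowest array, and the other arrays mixed. Its difference was 0.22 ± 0.13 (adjusted p = 0.555). All 3 Idi1 probes read higher in DPG (between 0.22 and 0.28), and the dimmest of them separated the groups, with -0.22, -0.36 and -0.27 in DPG rats, against -0.44, -0.53 and -0.73 in control rats. Fdps, which joins the units into farnesyl diphosphate, had 2.88, 2.90 and 2.88 in DPG rats, against 2.83, 2.59 and 2.78 in control rats. Its groups did not overlap (0.15 ± 0.08, adjusted p = 0.512), while its other probes read 0.10 and -0.01. Ggps1, on the branch to geranylgeranyl groups for protein prenylation, differed by 0.09 ± 0.07 (adjusted p = 0.632), and its groups overlapped.

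The 11 enzymes from squalene to cholesterol held 2 of the 3 members at an unadjusted p of 0.05 (18.2% of the 11, against 12.4% of all features). Their median was 0.07, and 7 of 11 lay above 0 (63.6%, against 50.8% of all features). None of the first 4 steps passed that threshold. Fdft1, squalene synthase, which commits isoprenoids to sterols, had 3.13, 3.18 and 3.04 in DPG rats, against 3.08, 3.08 and 3.14 in control rats, a difference of 0.01 ± 0.07 (adjusted p = 0.948). Sqle, squalene epoxidase, had 1.58, 1.60 and 1.74 in DPG rats, against 1.69, 1.78 and 1.66 in control rats (-0.07 ± 0.08, adjusted p = 0.738). In both genes the groups overlapped and the second probe had the opposite sign, -0.05 for Fdft1 and 0.02 for Sqle. Lss, which closes squalene epoxide into lanosterol, differed by -0.03 ± 0.13 (adjusted p = 0.941). Cyp51, the demethylase of lanosterol, had -0.08, -0.07 and -0.14 in DPG rats, against -0.12, -0.19 and -0.36 in control rats. Control 1 lay among the DPG arrays (0.13 ± 0.08, adjusted p = 0.587), and the second probe read 0.02.

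Tm7sf2, whose product reduces the C14 double bond left by Cyp51, had the largest fold change of the 29 members. It had 2.88, 3.01 and 2.86 in DPG rats, against 2.59, 2.48 and 2.71 in control rats. Every DPG array was above every control array. The difference was 0.32 ± 0.09, a 1.25-fold difference with a 95% interval from 1.08-fold to 1.45-fold (adjusted p = 0.296). Its second, dimmer probe had 1.02, 1.13 and 1.11 in DPG rats, against 0.75, 0.68 and 0.81 in control rats, again without overlap, and read 0.34. Over the alternatives tried, its fold change lay between 0.26 and 0.39 and its adjusted p between 0.169 and 0.607.

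None of the enzymes that then trim and rearrange the ring system, up to Sc5d, passed an unadjusted p of 0.05. Msmo1, which oxidises the C4 methyl groups, differed by 0.07 ± 0.10 (adjusted p = 0.802), and Nsdhl, which removes them, by -0.01 ± 0.11 (adjusted p = 0.984). Hsd17b7, the ketone reductase of the same complex, had -1.44, -1.23 and -1.30 in DPG rats, against -1.29, -1.81 and -1.11 in control rats. Control rats spread over a wide range around the DPG arrays (0.08 ± 0.19, adjusted p = 0.890). Its dimmer probe had -1.88, -3.11 and -3.02 in DPG rats, against -2.95, -3.57 and -3.00 in control rats. There DPG 1 stood far above the other 5 arrays, an excess that the brighter probe did not show in that rat.

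Ebp, the sterol isomerase, had 4.02, 4.004 and 4.01 in DPG rats, against 3.89, 3.99 and 3.90 in control rats. The groups did not overlap by a narrow margin, and the difference was 0.09 ± 0.06 (adjusted p = 0.604). Sc5d, the desaturase that makes 7-dehydrocholesterol, had 0.44, 1.10 and 1.15 in DPG rats, against 1.14, 1.16 and 0.75 in control rats. DPG 1 and control 3 were low and the other 4 arrays lay close together. Its difference was -0.12 ± 0.23 (adjusted p = 0.854), and 0.11 without DPG 1.

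Dhcr7 reduces 7-dehydrocholesterol to cholesterol. It had 3.03, 3.05 and 2.94 in DPG rats, against 2.81, 2.80 and 2.61 in control rats. The groups did not overlap. The difference was 0.26 ± 0.08, a 1.20-fold difference with a 95% interval from 1.04-fold to 1.38-fold (adjusted p = 0.331), on the gene's only probe. Over the alternatives its fold change lay between 0.20 and 0.30 and its adjusted p between 0.210 and 0.645. Its unadjusted p was 0.019, and lay at 0.056 without DPG 1, 0.058 without DPG 2 and 0.052 without control 3.

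**Figure D2:**
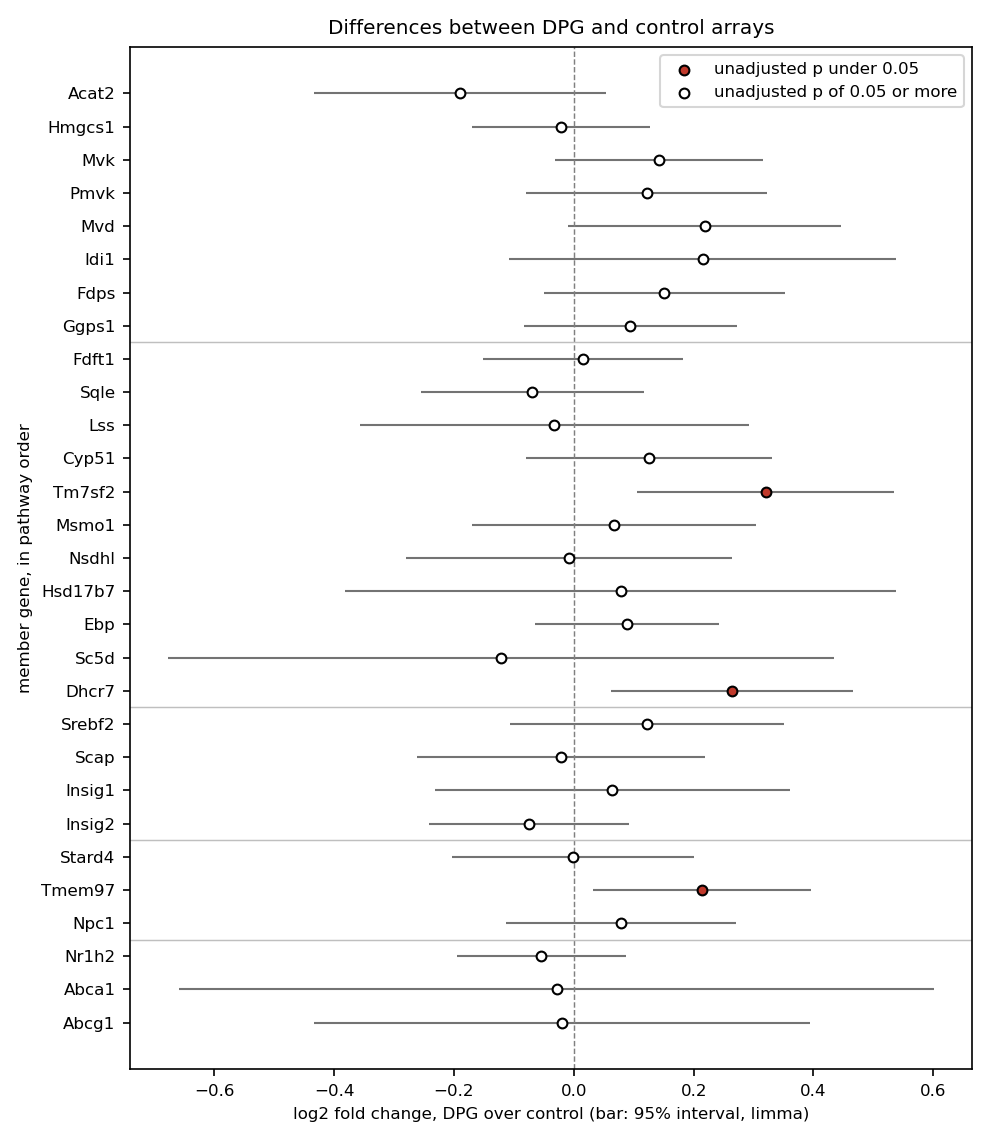
Log2 fold change of each gene, DPG over control, in pathway order, with 95% intervals from limma (3 rats per group). Filled points have an unadjusted p under 0.05. The intervals of Tm7sf2, Dhcr7 and Tmem97 lie above 0, and those of Sc5d and Abca1 are the widest.

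None of the 4 regulators differed at an unadjusted p of 0.05, and their groups all overlapped. Srebf2, which encodes SREBP-2, had 1.88, 1.66 and 1.84 in DPG rats, against 1.67, 1.57 and 1.78 in control rats (0.12 ± 0.09, adjusted p = 0.632). DPG 2 lay within the control range. Scap differed by -0.02 ± 0.10 (adjusted p = 0.947) and Insig2 by -0.07 ± 0.07 (adjusted p = 0.688). Insig1, itself an SREBP-2 target, had 2.50, 2.56 and 2.60 in DPG rats, against 2.43, 2.30 and 2.73 in control rats. The DPG arrays lay inside the control range (0.06 ± 0.12, adjusted p = 0.855), and its 4 probes ran from -0.03 to 0.06.

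Among the transport genes Tmem97, whose product binds the lysosomal cholesterol exporter NPC1, had 1.30, 1.37 and 1.24 in DPG rats, against 1.00, 1.12 and 1.15 in control rats. The groups did not overlap, and the difference was 0.21 ± 0.07, a 1.16-fold difference with a 95% interval from 1.02-fold to 1.32-fold (adjusted p = 0.358). Its second probe had 0.06, 0.20 and 0.03 in DPG rats, against -0.07, 0.07 and 0.10 in control rats, and read 0.07 with overlap. With the mean of both probes the fold change was 0.14 at an unadjusted p of 0.120, against 0.029 with the brighter probe. Without DPG 1, DPG 2, control 1 or control 2 its unadjusted p was 0.068, 0.085, 0.089 and 0.052.

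Stard4, a cytosolic sterol carrier and SREBP-2 target, had 1.68, 1.71 and 1.73 in DPG rats, against 1.85, 1.61 and 1.68 in control rats. The difference was 0.00 ± 0.08 (adjusted p = 0.996), with a 95% interval from 0.868-fold to 1.15-fold. Npc1, which moves cholesterol out of the lysosome, had 1.37, 1.38 and 1.31 in DPG rats, against 1.15, 1.33 and 1.34 in control rats. The groups overlapped (0.08 ± 0.08, adjusted p = 0.711). Npc1 had 7 probes, the most of any member. The 5 that passed the filter ran from -0.14 to 0.36, and the one at 0.36 cleared background in only 1 control rat but in all 3 DPG rats.

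All 3 efflux genes had fold changes below 0, with a median of -0.03 (-0.11 with normexp) and 0 at an unadjusted p of 0.05. Nr1h2, which encodes LXR-beta, had 2.92, 2.93 and 2.91 in DPG rats, against 2.97, 2.96 and 3.00 in control rats. All DPG arrays were below all control arrays, by 0.05 on the log2 scale, and both groups varied little (-0.05 ± 0.06, adjusted p = 0.729). Abca1, which loads cholesterol onto apolipoprotein A-I, had -3.27, -2.71 and -2.69 in DPG rats, against -2.58, -2.67 and -3.33 in control rats. DPG 1 and control 3 were low and the others close together (-0.03 ± 0.26, adjusted p = 0.975). Abcg1, which exports cholesterol to larger lipoproteins, had 0.83, 0.58 and 1.01 in DPG rats, against 0.84, 1.08 and 0.56 in control rats (-0.02 ± 0.17, adjusted p = 0.975). For the pumps the 95% intervals ran from 0.634-fold to 1.52-fold for Abca1 and from 0.740-fold to 1.32-fold for Abcg1. A change inside these intervals was not excluded.

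**Figure D3:**
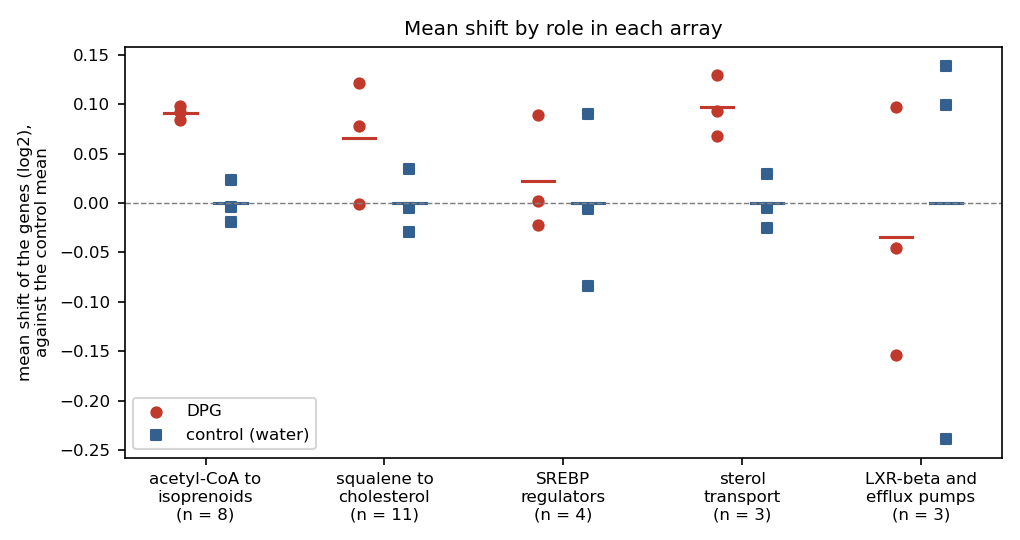
Mean shift of the genes of each role in each array, as log2 scaled signal minus the control mean of each gene; bars are group means, red circles DPG and blue squares control (water). The early enzymes and the transport genes lie higher in all DPG arrays than in all control arrays, while the late enzymes, the regulators and the efflux genes overlap.

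By role, the mean shift of the 8 early enzymes from the control mean was 0.10, 0.08 and 0.09 in DPG 1 to 3, against 0.02, 0.00 and -0.02 in control 1 to 3. All DPG arrays lay above all control arrays. That of the 11 late enzymes was 0.00, 0.12 and 0.08 in DPG rats, against 0.03, -0.01 and -0.03 in control rats, so DPG 1 lay in the control range. The 3 transport genes had 0.09, 0.13 and 0.07 in DPG rats, against -0.02, 0.00 and 0.03 in control rats. Of these 3 only Tmem97 did not overlap by itself, and its second probe did overlap. Over all features the mean shift was 0.004, -0.004 and 0.016 in DPG rats, against -0.004, 0.004 and 0.001 in control rats. How often the means of other small gene sets separate the groups was not counted. The 3 efflux genes had -0.15, -0.05 and 0.10 in DPG rats, against 0.10, 0.14 and -0.24 in control rats, a spread within each group far wider than the difference between them. With normexp the median fold change of the early enzymes was 0.08 in place of 0.13, that of the late enzymes 0.03 in place of 0.07, and that of the transport genes 0.15 in place of 0.08. That of the regulators was -0.03 in place of 0.02, with the sign turned, and that of the efflux genes -0.11 in place of -0.03. Without control 2 the regulators' median was -0.04 and that of the efflux genes 0.07, both with the sign turned, and the regulators' median was also below 0 without DPG 3 (-0.02) and with the mean of each gene's probes (-0.01).

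Of the 29 members 16 had several probes that passed the filter, and in 7 of these (Hmgcs1, Fdps, Fdft1, Sqle, Insig1, Stard4 and Npc1) the probes had both signs. In each of these but Fdps and Npc1 the probes lay within 0.1 of 0. Idi1, Tm7sf2 and Srebf2 had probes of 1 sign and like size. Of the 56 member probes 53 passed the filter and 3 did not, and the brightest probe of every member was above background on all 6 arrays.

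**Figure D4:**
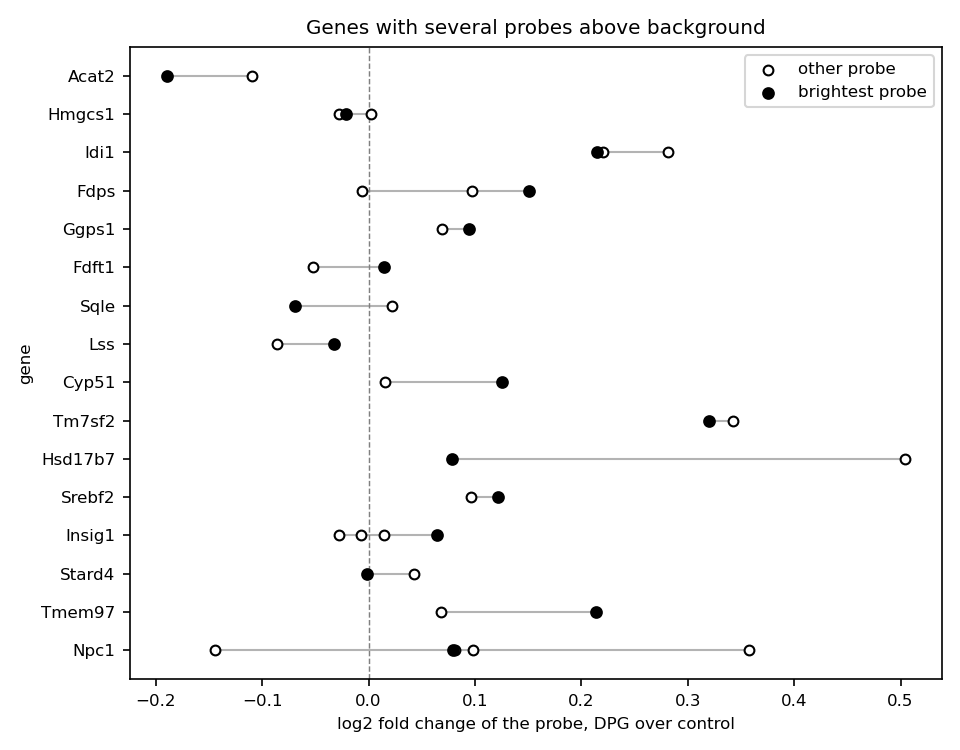
Log2 fold change, DPG over control, of each probe that passed the filter, for the 16 genes with several such probes. Filled points are the brightest probes and open points the others. The pair of Tm7sf2 probes lies together above 0.3, while the probes of Npc1 and Hsd17b7 spread widely.

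Of a list of 25 other genes of sterol handling, 22 had a probe and 18 passed the filter. None of these 18 had an adjusted p under 0.05 in limma, and 0 had an unadjusted p under 0.05. Their median log2 fold change was -0.04, with 7 above 0 and 11 below. Osbp, which exchanges sterols between the endoplasmic reticulum and the Golgi, had 0.16 ± 0.07 (adjusted p = 0.417). Npc2, the lysosomal partner of Npc1, had -0.19 ± 0.09 (adjusted p = 0.454), and Lipa, the lysosomal lipase that frees cholesterol from its esters, had -0.16 ± 0.09 (adjusted p = 0.515).

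Markers of tubule segments moved with the groups in the same arrays. Of 7 straight proximal tubule markers 6 lay above 0 (median 0.29; 5 passed an unadjusted p of 0.05, where 12.4% of all features did), and their summed linear signal ran from 820 to 866 in DPG rats, against 535 to 679 in control rats, in units of each array's 75th percentile. All 7 convoluted proximal tubule markers lay below 0 (median -0.29; 3 passed), with a sum from 682 to 757 in DPG rats, against 755 to 860 in control rats. Of 5 thick ascending limb markers 4 lay above 0 (median 0.25; 3 passed, all higher), with a sum from 624 to 675 in DPG rats, against 516 to 558 in control rats. All such sums, here and below, lean on their brightest probes, so they are not levels of a whole cell type. Umod had a mean scaled log2 signal of 9.22 in DPG rats, against 5.44 for Slc12a1. Slc3a1 and Slc7a13 had 8.90 and 8.27, against 1.37 for Slc22a7. Fewer cells of a type and less RNA per cell cannot be told apart in such tissue samples, and the part of the segments in the sterol values was not tested.

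Collecting duct markers (3 of 5 below 0, median -0.30) summed to between 182 and 235 in DPG rats, against between 213 and 223 in control rats. In 2 of the 5, Slc26a4 (-0.40) and Atp6v1g3 (-0.30), all DPG arrays were below all control arrays at an unadjusted p of 0.05. The 5 podocyte markers, all below 0 (median -0.19), summed to between 24.2 and 30.7 in DPG rats, against between 25.6 and 33.4 in control rats. Of these, Nphs1 (-0.28) and Wt1 (-0.19) were lower without overlap and passed the same threshold. Of 7 macrophage and leukocyte markers 6 lay above 0 and 1 passed (Mrc1, 0.22), with sums from 101 to 136 in DPG rats, against 103 to 125 in control rats, and Cd163 was not well above background. Endothelial markers (2 of 5 above 0, and 1 passed, Pecam1 at 0.18) summed to between 26.4 and 29.1 in DPG rats, against between 26.1 and 30.9 in control rats. The summed ranges of these 4 lists, which lean on their brightest probes, overlapped between the groups, although some single markers did not. The part of these cells in the sterol values was not tested.

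Adrenal cortex, a tissue with high sterol turnover next to the kidney, had 3 of 7 markers that passed the filter. Of these 2 lay above 0 and 1 below. Cyp21a1 (0.52) passed an unadjusted p of 0.05, although its groups overlapped. Hsd3b1 (0.23) and Cyp11a1 (-0.12) did not pass. The 3 markers summed to between 2.04 and 2.35 in DPG rats, against between 1.59 and 2.09 in control rats. The defining adrenal markers Star, Cyp11b1, Cyp11b2 and Mc2r were not well above background on all arrays of either group. All 4 adipocyte markers that passed the filter had an unadjusted p under 0.05, where 12.4% of all features did. Their median log2 fold change was 1.00. Fabp4 (1.89, standard error 0.70), Retn (1.43) and Cidec (0.56) were higher in DPG and Adipoq (-0.45) was lower. Their adjusted p-values ran from 0.338 to 0.379 in limma. The groups overlapped for Fabp4 and Cidec. Retn was dim, with -4.73, -5.26 and -4.68 in DPG rats, against -5.28, -7.27 and -6.42 in control rats. A Srebf2 probe that ran from -6.83 to -5.67 was not well above background on any array. The Retn difference may thus rest on control values near the floor, and both the count of 4 and the median include it. The 4 adipocyte markers summed to between 2.88 and 4.25 in DPG rats, against between 2.64 and 3.27 in control rats, and Lep was not well above background. The part of adrenal and fat cells in the sterol values was not tested.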

How the data were processed

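Each of 6 rat renal cortices gave Cy3-labelled RNA for 1 Agilent array. The deposited spot intensity, background-subtracted and detrended by Agilent Feature Extraction 10.7.1.1 per the file headers (10.7 per the submitters' processing notes), was not scaled between arrays. The deposited series table holds the ratio of that signal to about each array's 75th percentile (column medians 0.111, 0.108 and 0.112 in DPG, 0.110, 0.111 and 0.114 in control), not centred per gene and in the same direction, and its scaling step is not stated in the labels.

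After control spots were removed, the 75th percentile of an array was subtracted from its log2 processed signals. Probes well above background on all 3 arrays of a group were kept (40406), less 23 with outlier flags, and the brightest probe stood for each gene (29647 features). Probes were named by RefSeq accession (28206 named, 33331 not). DPG and control were compared by limma 3.58.1 under R 4.3.3 (lmFit, eBayes, 4 residual and 1.95 prior degrees of freedom, two-sided, Benjamini-Hochberg over all features). The fit was tested on simulated data. The alternatives were normexp (offset 50, on median pixel signals), median and quantile scaling, no filter, a filter on all 6 arrays, the mean of probes, trend and robust variance, the deposited table, the replicate block and each rat left out.

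Members and lists were chosen with earlier results of these data known. All members are named, with up to 4 genes of each other list by smallest p; some of these are not reported here by name. Per-array values are given for the 10 members with the smallest p, for those with probes of both signs, and for others chosen after their values were seen (wide spread or no overlap). Same-numbered rats did not deviate together (correlations of -0.02, -0.09 and -0.07 for numbers 1 to 3).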

Additional observations from a re-analysis of the deposited data

How the results depend on the processing

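No member passed an adjusted p of 0.05 in limma under any alternative, and 17 of the 29 kept the sign of their fold change in all of them, Tm7sf2, Dhcr7 and Tmem97 included. With normexp background correction 5 members passed an unadjusted p of 0.05 (4 higher, 1 lower) in place of 3, where 15.2% of all features did in place of 12.4%, and the members' median was 0.00496 in place of 0.0672; the cause was not tested. With normexp the sign turned for Ggps1 (-0.0348), Nsdhl (0.000182), Hsd17b7 (-0.0646), Scap (0.00496) and Insig1 (-0.0723), with median scaling for Nsdhl (0.0068) and Stard4 (0.0132), and with the mean of a gene's probes for Fdft1 (-0.0187) and Stard4 (0.0207). With the replicate number as a block, 2 members passed an unadjusted p of 0.05, the features past an adjusted p of 0.05 numbered 0 and those at an unadjusted p of 0.05 numbered 2987; same-numbered rats share only a number. A slide block could not be fitted, as each group lay on its own slide.

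With 1 rat left out, the features past an adjusted p of 0.05 ranged from 0 to 1 (1 without control 2 and 1 without DPG 2), those at an unadjusted p of 0.05 from 2569 to 3942, the members at an unadjusted p of 0.05 from 1 to 4, the members' median from 0.064 to 0.0786, and the members whose groups did not overlap from 8 to 13, which smaller groups make likelier. Without DPG 1 or without DPG 2 the 1 member was Tm7sf2. The share of all features at that threshold was 8.57% without DPG 1 and 9.44% without DPG 2. The count of 4 came without DPG 3, where 13.2% of all features passed. The count of 8 without overlap came without DPG 1, where 27.7% of all features did not overlap. It was 10 without control 2 or control 3, where 30.8% did not in each case. The count of 13 came without control 1, DPG 2 or DPG 3, where 28.1%, 29.2% and 34.4% of all features did not overlap. Signs turned for Abca1 (-0.265 to 0.163), Abcg1 (-0.152 to 0.105), Fdft1 (-0.0171 to 0.0531), Hsd17b7 (-0.125 to 0.225), Insig1 (-0.0268 to 0.186), Lss (-0.154 to 0.0482), Msmo1 (-0.0208 to 0.124), Nsdhl (-0.101 to 0.054), Sc5d (-0.257 to 0.109), Scap (-0.109 to 0.0457) and Stard4 (-0.0527 to 0.0676).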
